A study of Homo sapiens with 6 samples.

Results

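The genes described here are the oligoadenylate synthetase family, OAS1, OAS2, OAS3 and OASL, together with CNP, which encodes a cyclic nucleotide phosphodiesterase. They were chosen by symbol from a table of 26372 genes, with the values of each knockdown library against the 3 controls in view, and all 5 symbols were found in it. That choice used the contrast between knockdown and control, so the levels of the 5 genes are given as a description and without a test.

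BE(2)-M17, the cell line used, was established from a human neuroblastoma. Its RNA was sequenced in 3 libraries of cells in which the long non-coding RNA GOMAFU (symbol MIAT) was knocked down and in 3 control libraries, numbered 2, 3 and 4 in both groups. The protocols give lipid transfection of 100 pmol of siRNA, microRNA mimic or inhibitor. What was given to the control cells, and which sequence lowered GOMAFU, is not stated. Both groups are of 1 cell line, and nothing in the labels says whether replicates were separate cultures, so p-values measure the spread between these libraries, which may be technical. Values are FPKM, fragments scaled to transcript length and to the mapped fragments of the library, so levels can be compared between genes of different length.

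OAS enzymes bind double-stranded RNA and then join ATP into 2'-5' linked oligoadenylates, called 2-5A. The known receptor of 2-5A is RNase L, an endoribonuclease that 2-5A switches on and that leaves cyclic phosphate ends on the RNA it cuts. OAS1 has a single synthetase unit, OAS2 and OAS3 carry repeated units, and OASL has no synthetase activity but carries ubiquitin-like domains and is known to enhance signalling by the RNA sensor RIG-I. CNP opens 2',3'-cyclic nucleotides, is an abundant protein of myelin, and is also known as an interferon-induced gene. OAS genes are textbook targets of type I interferon, through the transcription factor complex ISGF3, of which STAT2 and IRF9 are parts. Neither 2-5A nor cleavage of RNA was measured here.

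OAS1, OAS3 and OAS2 lie side by side on the plus strand of chromosome 12 (GRCh38, GENCODE release 29), OAS1 from 112906777 to 112933222, OAS3 from 112938352 to 112973249 and OAS2 from 112978395 to 113011723. OASL lies further along that chromosome on the minus strand, from 121019111 to 121039242, and CNP on the plus strand of chromosome 17, from 41966741 to 41977731. An annotated antisense gene, AC004551.1, runs opposite all 3 clustered OAS genes, and the end of CNP overlaps DNAJC7 on the opposite strand. Whether counting used strand is not stated, so reads of these partners cannot be told apart from those of the genes named. DNAJC7, a cochaperone, was at 78.6, 85.7 and 81.3 FPKM in knockdown replicates 2, 3 and 4, against 82.6, 82.6 and 79.9 FPKM in control replicates 2, 3 and 4.

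Upstream sequences are shown because interferon-stimulated response elements are built from repeats of GAAA. RefSeq promoter entries (GRCh38.p14) matched 3 of the 5 genes, OAS1, OAS3 and CNP, the last with 2 entries, of which the first is shown. OAS2 and OASL are not shown. The RefSeq starts of these entries lie inside the GENCODE genes, so the windows reach into them. For OAS1 all 160 bases shown lie inside its GENCODE gene. The motifs GAAANNGAAA and GAAANGAAA were searched on both strands in the 250 bases before each annotated start. Each line below gives the last 160 of these bases, 5' to 3' on the plus strand, with matches in capitals.
OAS1, chr12:112906802-112906961: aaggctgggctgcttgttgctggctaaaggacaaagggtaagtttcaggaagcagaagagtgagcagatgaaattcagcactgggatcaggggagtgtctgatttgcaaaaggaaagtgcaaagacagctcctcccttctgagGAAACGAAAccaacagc
OAS3, chr12:112938314-112938473: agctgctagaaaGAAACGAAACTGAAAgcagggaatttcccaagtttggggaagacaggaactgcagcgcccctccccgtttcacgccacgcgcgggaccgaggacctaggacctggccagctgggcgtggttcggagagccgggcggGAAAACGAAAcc
CNP entry 1, chr17:41966635-41966794: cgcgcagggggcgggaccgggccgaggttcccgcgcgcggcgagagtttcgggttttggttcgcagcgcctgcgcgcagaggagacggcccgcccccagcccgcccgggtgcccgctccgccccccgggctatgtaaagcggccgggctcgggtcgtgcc
OAS1 held GAAANGAAA once, 17 to 9 bases before the start. OAS3 held GAAANNGAAA at 143 to 134 and at 12 to 3 bases before the start, and GAAANGAAA at 148 to 140, which overlaps the first of these. Neither motif was found in the 250 bases of either CNP entry. Over all 35116 promoter entries, 3.02% held GAAANNGAAA, 2.69% held GAAANGAAA and 5.48% held either. A match of letters is a description and shows no binding.

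MIAT was lower in each knockdown library than in any control. It was at 1.27, 1.32 and 3.21 FPKM in knockdown replicates 2, 3 and 4, against 5.38, 5.96 and 8.57 FPKM in control replicates 2, 3 and 4, which is 0.192, 0.199 and 0.484 times the mean of the controls. On the log2(FPKM + 1) scale the difference was -1.42 (SE 0.27; adjusted p = 0.9998, limma; exact two-sided permutation p = 0.1, the smallest that 3 against 3 allows). Knockdown replicate 4 stood apart: it correlated with the other 5 libraries at r = 0.940 to 0.956 across genes, and those 5 with one another at 0.983 to 0.997. Depth in reads is not given. It was estimated from the most frequent ratio between libraries among genes with very low values. By this ratio knockdown replicates 2, 3 and 4 were at 1.08, 1.37 and 1.06 times the depth of control replicate 3. Control replicates 2 and 4 were at 1.09 and 0.966 times. Any further scaling between libraries would enter this ratio as well. The library with the most OAS RNA, knockdown replicate 4, thus had the highest MIAT level of the knockdown libraries. Its estimated depth was no greater than that of knockdown replicate 2. The part of residual MIAT in the OAS levels was not tested.

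All 4 OAS genes were higher in every knockdown library than in any control, by amounts that differed widely between the knockdown libraries, and CNP stood apart from the controls in knockdown replicate 4 alone. OAS1 was at 20.0, 2.83 and 138.7 FPKM in knockdown replicates 2, 3 and 4, against 1.39, 1.23 and 0.290 FPKM in control replicates 2, 3 and 4. Knockdown replicate 4 was the highest and knockdown replicate 3 the lowest of the knockdown libraries, still above each control, and control replicate 4 lay well below the other two controls. Relative to the control mean of 0.970 ± 0.594 FPKM (SD, n = 3), OAS1 was 20.6, 2.92 and 143.0 times as high in knockdown replicates 2, 3 and 4. Without control replicate 4 these ratios would be 15.3, 2.16 and 105.9.

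OAS3 carries the most synthetase units and is known in human cells as a main activator of RNase L. It was at 42.8, 13.3 and 463.5 FPKM in knockdown replicates 2, 3 and 4, against 10.8, 10.8 and 7.99 FPKM in control replicates 2, 3 and 4. The groups did not overlap, with knockdown replicate 3 only 1.35 times the control mean of 9.89 ± 1.64 FPKM (SD, n = 3) and knockdown replicates 2 and 4 at 4.33 and 46.9 times. As for OAS1, control replicate 4 was the lowest control.

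OAS2, which carries repeated synthetase units, was nearly silent in the controls. It was at 3.46, 0.359 and 213.8 FPKM in knockdown replicates 2, 3 and 4, against 0.143, 0.153 and 0.129 FPKM in control replicates 2, 3 and 4. The knockdown libraries were 24.4, 2.54 and 1511 times the control mean of 0.142 ± 0.012 FPKM (SD, n = 3). The separation of knockdown replicate 3 was lost under quantile normalization, where OAS2 was at 0.317 FPKM in that library, against 0.319 to 0.349 FPKM in the controls.

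OASL was listed at 0 in all 3 controls, so no fold is given. In knockdown replicates 2, 3 and 4 it was at 3.46, 0.298 and 206.3 FPKM, against 0, 0 and 0 FPKM in control replicates 2, 3 and 4. Of 16 ubiquitously expressed genes checked for failed estimates, 0 were at 0 in any library. Their lowest value was 8.69 FPKM, so this check cannot show whether OASL was absent or below detection in the controls. OASL and OAS2 thus had nearly the same level in each knockdown library, although they lie apart on the chromosome and only OAS2 was above 0 in the controls.

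CNP was expressed in every library. It was at 16.9, 15.2 and 46.9 FPKM in knockdown replicates 2, 3 and 4, against 16.9, 15.1 and 15.1 FPKM in control replicates 2, 3 and 4. Knockdown replicates 2 and 3 lay within or next to the range of the controls, so the groups overlap, and knockdown replicate 4 was 2.99 times the control mean of 15.7 ± 1.01 FPKM (SD, n = 3).

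**Figure D1:**
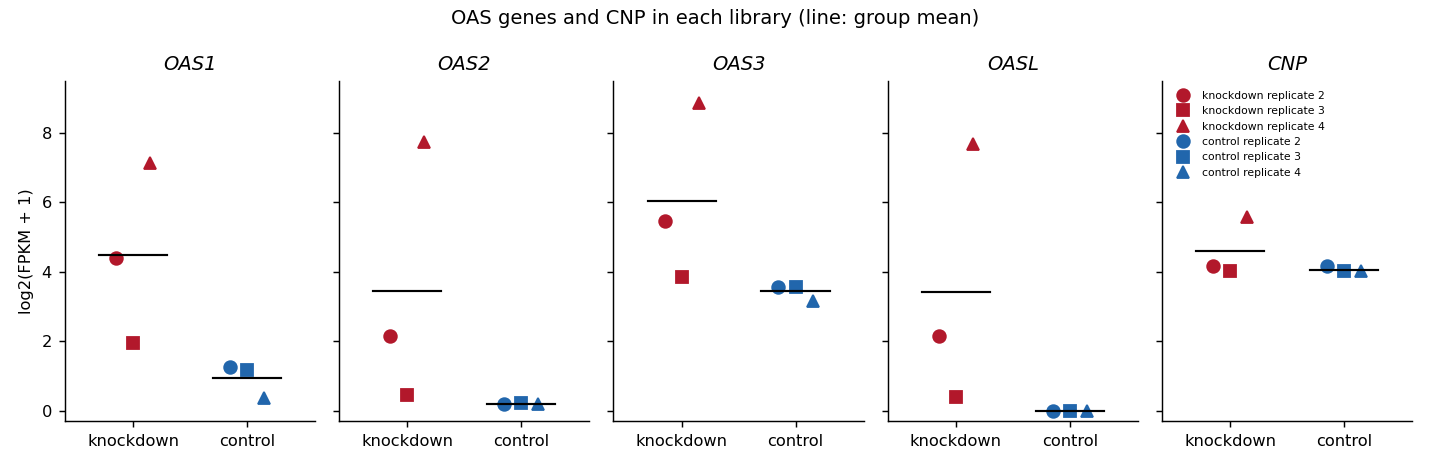
Level of each gene as log2(FPKM + 1) in the 3 knockdown libraries (red, left) and the 3 control libraries (blue, right); symbols mark the replicate number and black lines the group means. Knockdown replicate 4 is the highest point of every panel, and OAS1, OAS2, OAS3 and OASL show no overlap between groups, whereas CNP does.

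As differences of group means of log2(FPKM + 1), knockdown minus control, OAS1 stood at 3.56, OASL at 3.41, OAS2 at 3.26, OAS3 at 2.62 and CNP at 0.53. The SD of the 3 knockdown libraries on this scale was 2.60 for OAS1, 3.82 for OASL, 3.82 for OAS2, 2.56 for OAS3 and 0.86 for CNP, as large as or larger than the difference for OASL, OAS2 and CNP. Without knockdown replicate 4 the differences were 2.24 for OAS1, 1.27 for OASL, 1.11 for OAS2, 1.21 for OAS3 and 0.03 for CNP. Of the 5 genes, 4 lay without overlap above the controls. The share of genes above the controls without overlap was 4.01% of the 12164 whose mean reached 1 FPKM. Below the controls without overlap lay 0 of the 5 genes, and 4.35% of the 12164. All 5 genes passed that minimum, OAS2 and OASL only through knockdown replicate 4, without which their means were 0.848 and 0.752 FPKM. Leaving that library out, 4 of the 5 genes again lay above the controls without overlap, OAS2 and OASL among them although below the minimum, and the share over the 12056 genes that then passed it was 11%.

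Counted library by library, a value at least 1 above the control mean on the log2(FPKM + 1) scale was reached by 4 of the 5 genes in knockdown replicate 2, by 1 (OAS1) in knockdown replicate 3 and by 5 in knockdown replicate 4. The same size was reached by 0.403%, 0.074% and 2.29% of all 12164 genes in those libraries. By size of this difference OAS1 ranked 9 in knockdown replicate 2, 9 in knockdown replicate 3 and 25 in knockdown replicate 4, where OASL ranked 10, OAS2 ranked 12, OAS3 ranked 38 and CNP ranked 173. These values chose the genes and support nothing further. In bulk RNA, more RNA per cell and more cells with the RNA cannot be told apart.

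**Figure D2:**
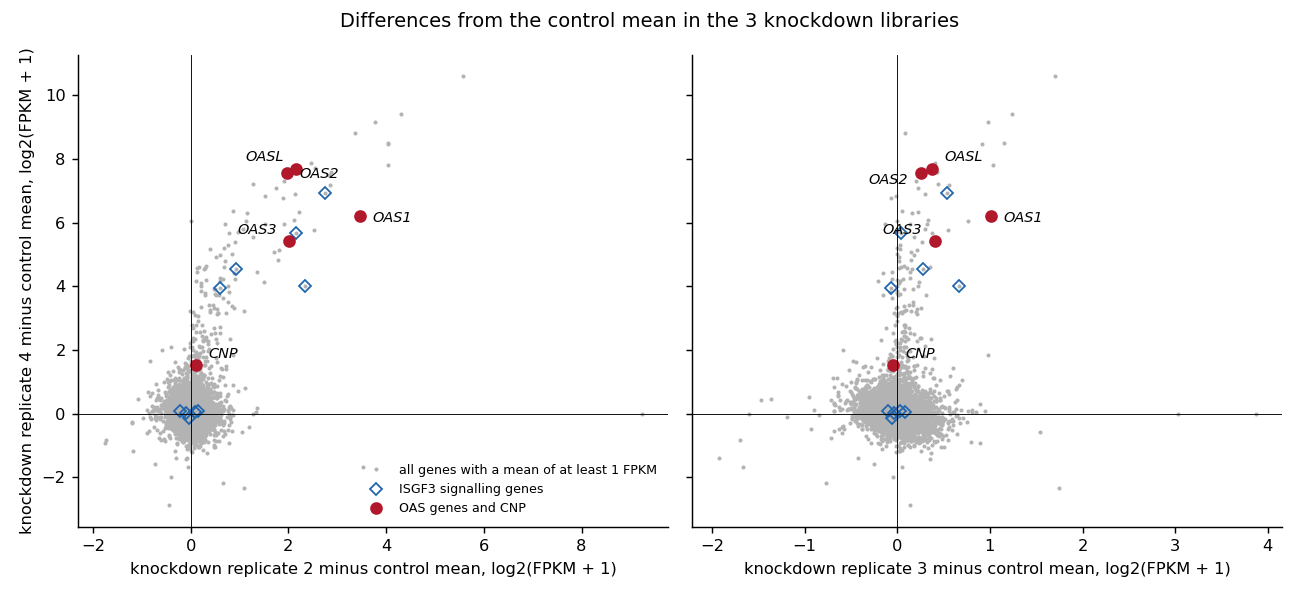
Difference of each gene from its control mean on the log2(FPKM + 1) scale in knockdown replicate 4 (vertical) against knockdown replicate 2 (left panel) and knockdown replicate 3 (right panel); grey points are all 12164 genes, blue diamonds ISGF3 signalling genes and red points the OAS genes and CNP. OAS1 lies to the right of the other OAS genes in both panels, and CNP stands well above 0 on the vertical axis only.

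The order of the levels differed between the knockdown libraries, and knockdown replicate 3 kept the order of the controls. In the controls the order was CNP, OAS3, OAS1, OAS2 and OASL, with means of 15.7, 9.89, 0.970, 0.142 and 0 FPKM, and neighbours in this order were apart by more than their SDs. In knockdown replicate 2 the order was OAS3, OAS1, CNP, OASL and OAS2, with OASL and OAS2 nearly equal. In knockdown replicate 4 it was OAS3, OAS2, OASL, OAS1 and CNP. The knockdown means were 173.2 ± 251.8 FPKM for OAS3, 72.5 ± 122.3 for OAS2, 70.0 ± 118.0 for OASL, 53.8 ± 74.0 for OAS1 and 26.4 ± 17.8 for CNP (SD, n = 3), and no neighbours in this order were apart by more than their SDs.

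The summed level of the 4 OAS genes was 69.7, 16.8 and 1022 FPKM in knockdown replicates 2, 3 and 4, against 12.4, 12.2 and 8.41 FPKM in control replicates 2, 3 and 4. OAS3 held 61.4%, 79.2% and 45.3% of that sum in knockdown replicates 2, 3 and 4, against 87.6%, 88.7% and 95.0% of it in control replicates 2, 3 and 4. OAS3 was the largest part in each library, and its share was smaller in each knockdown library than in any control. OAS1 held 28.7%, 16.9% and 13.6% of the sum in knockdown replicates 2, 3 and 4, against 11.3%, 10.0% and 3.45% of it in control replicates 2, 3 and 4. OAS2 and OASL together passed OAS1 only in knockdown replicate 4, with 20.9% and 20.2%, against 4.96% and 4.97% in knockdown replicate 2.

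**Figure D3:**
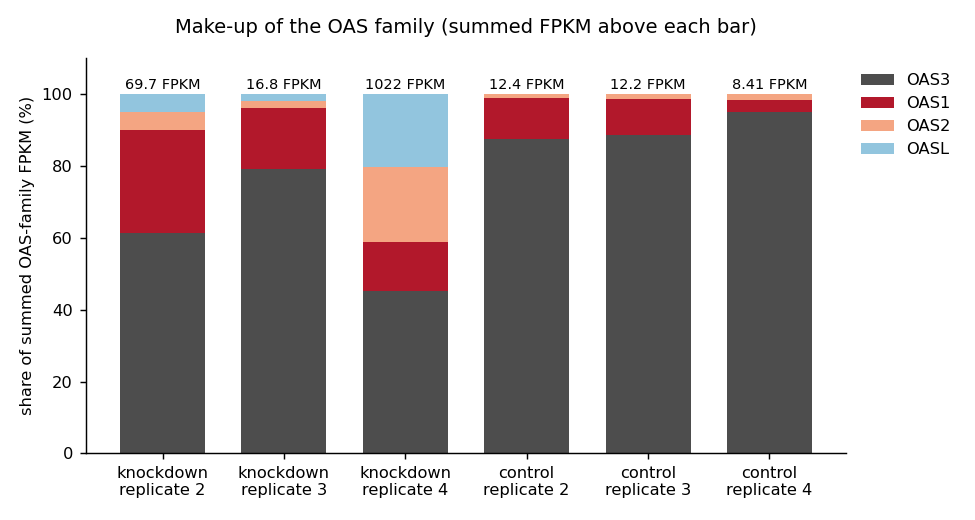
Share of the summed FPKM of OAS1, OAS2, OAS3 and OASL held by each gene (percent, stacked bars) in knockdown replicates 2, 3 and 4 and control replicates 2, 3 and 4, with the sum above each bar. OAS3 holds 87.6% to 95.0% in the controls and 45.3% in knockdown replicate 4, where OAS2 and OASL hold 20.9% and 20.2%.

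The OAS genes also differed in how far knockdown replicate 2 followed knockdown replicate 4. The excess of OAS1 over its control mean in FPKM was, in knockdown replicate 2, 13.8% of that in knockdown replicate 4. The same share was 7.25% for OAS3, 3.92% for CNP, 1.68% for OASL and 1.55% for OAS2. In knockdown replicate 3 the shares were 1.35% for OAS1, 0.752% for OAS3, 0.144% for OASL, 0.102% for OAS2 and -1.68% for CNP, which there lay below its control mean. Over the 135 other genes at least 2 above the control mean on the log2(FPKM + 1) scale in knockdown replicate 4, the median share was 3.05% in knockdown replicate 2 (quartiles 1.50% and 5.00%) and 0.296% in knockdown replicate 3. OAS1 and OAS3 thus lay above the upper quartile of these genes in knockdown replicate 2, and OAS2 and OASL just above the lower one. CNP, the member with the highest control level, lay between the quartiles. At 1.52 above the control mean in knockdown replicate 4, however, it did not reach the 2 that defined these genes. Its 3.92% rests on 16.9 FPKM in knockdown replicate 2, the same level as in control replicate 2. No test was made of this order.

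The other genes of the 2-5A pathway gave small differences, and none of those tested passed the threshold of an adjusted p under 0.05. Over all 12164 genes 0 were called higher and 0 lower by limma (0% each way), and an unadjusted p under 0.05 was given to 118 higher and 145 lower genes. ABCE1, known both as an inhibitor of RNase L and as a ribosome recycling factor, was at 59.4, 59.6 and 39.7 FPKM in knockdown replicates 2, 3 and 4, against 57.2, 62.7 and 55.4 FPKM in control replicates 2, 3 and 4. PDE12, a phosphodiesterase that breaks down 2-5A, was at 7.98, 6.83 and 5.35 FPKM in knockdown replicates 2, 3 and 4, against 6.74, 7.07 and 6.08 FPKM in control replicates 2, 3 and 4. For both genes knockdown replicate 4 was the lowest of the 6 libraries and the groups overlapped, with log2 differences of -0.16 (SE 0.16) for ABCE1 and 0.00 (SE 0.14) for PDE12. AKAP7, whose mouse form can break down 2-5A, was at 0.022 FPKM in knockdown replicate 4 and listed at 0 in the other 5 libraries.

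Genes listed around cyclic phosphate ends of RNA, the kind of end that RNase L leaves and on which CNP can act, were all expressed (10 of 10 reached a mean of 1 FPKM). The list also holds partner proteins and other RNA-processing enzymes, so not all of its genes act on such ends themselves. Called higher were 0 and lower 0 (limma; unadjusted p under 0.05 for 0 higher and 1 lower), and the median log2 difference was -0.03, against -0.01 over all genes. The 1 gene was RTCB, the tRNA ligase that joins such ends, at 34.7, 34.0 and 31.0 FPKM in knockdown replicates 2, 3 and 4, against 40.2, 37.7 and 39.9 FPKM in control replicates 2, 3 and 4. Its groups did not overlap, with a log2 difference of -0.24 (SE 0.07; adjusted p = 0.9998, limma). RTRAF and FAM98B, partners of that ligase, differed by -0.10 and -0.13 with overlap.

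RIG-I was the 1 tested gene among other proteins that sense or bind double-stranded RNA whose knockdown libraries all lay above the controls. Of 15 genes, 13 were tested, with 0 called higher and 0 lower (limma; 0 and 0 at an unadjusted p under 0.05) and a median log2 difference of -0.0039. RIG-I (listed as DDX58), whose signalling OASL enhances, was at 6.80, 1.27 and 121.6 FPKM in knockdown replicates 2, 3 and 4, against 0.827, 0.960 and 0.649 FPKM in control replicates 2, 3 and 4. Its groups did not overlap, with a log2 difference of 2.84 (SE 1.29). The kinase PKR (EIF2AK2) was 2.22, 1.11 and 10.1 times its control mean in knockdown replicates 2, 3 and 4, DHX58 3.45, 1.09 and 168.6 times and the editing enzyme ADAR 1.46, 1.02 and 4.74 times. Groups overlapped for EIF2AK2, DHX58 and ADAR. The abundant binding protein ILF2 differed by -0.11 on the log2 scale.

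Genes listed around ISGF3 signalling, the pathway through which interferon reaches the OAS genes, differed in whether their groups overlapped. The list also holds IRF1, IRF3, IRF7 and USP18, which are not steps of that pathway, so its counts and median do not describe the pathway alone. All 10 were tested, with 0 called higher and 0 lower (limma; unadjusted p under 0.05 for 2 higher and 0 lower), 3 without overlap above the controls (IRF9, IRF1 and USP18) and 1 (TYK2) below, and a median log2 difference of 0.79. IRF9 was at 35.3, 10.3 and 113.0 FPKM in knockdown replicates 2, 3 and 4, against 7.37, 6.06 and 5.12 FPKM in control replicates 2, 3 and 4. STAT2 was 1.63, 0.940 and 18.7 times its control mean in knockdown replicates 2, 3 and 4. IRF9 was thus higher in knockdown replicate 3 than in any control, as the OAS genes were, whereas STAT2 was not. The factor IRF7 was 9.63, 1.07 and 127 times its control mean in knockdown replicates 2, 3 and 4, with overlap. The factor IRF1 was 3.12, 1.50 and 53.0 times its control mean in those libraries, and USP18, which dampens the receptor, 35.7, 3.73 and 734 times. The kinases JAK1 and TYK2, the receptor chains IFNAR1 and IFNAR2 and the factor IRF3 had log2 differences of 0.09, -0.08, -0.03, 0.08 and -0.08.

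**Figure D4:**
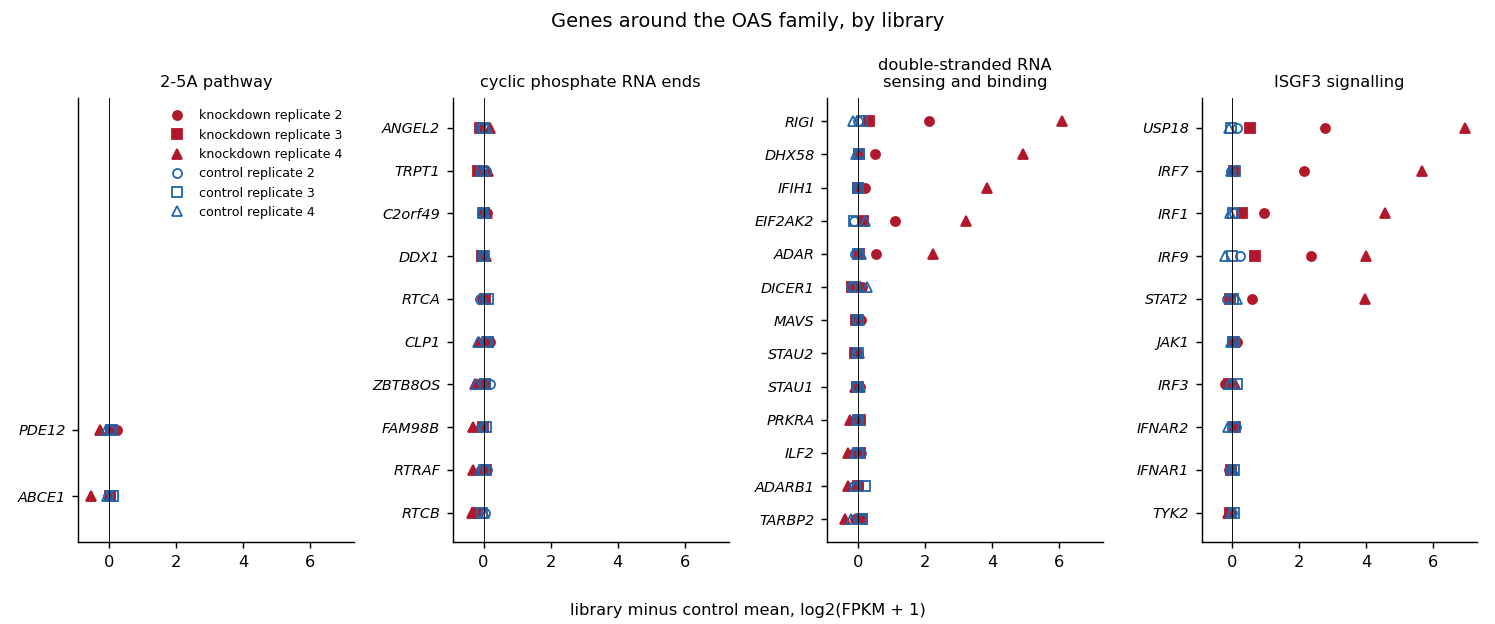
Difference of each library from the gene's control mean on the log2(FPKM + 1) scale for genes of the 2-5A pathway, of cyclic phosphate RNA ends, of double-stranded RNA sensing and binding, and of ISGF3 signalling, with knockdown libraries in filled red and control libraries in open blue symbols. Knockdown replicate 4 lies 2.23 to 6.94 above the control mean for ADAR, EIF2AK2, IFIH1, DHX58, RIGI, STAT2, IRF9, IRF1, IRF7 and USP18, and between -0.54 and 0.19 for the other genes with a mean of 1 FPKM or more.

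Enzymes that share the nucleotidyltransferase fold with the OAS family mostly gave values near 0. Of 16 genes, 12 were tested, with 0 called higher and 0 lower (limma; 0 and 0 at an unadjusted p under 0.05) and a median log2 difference of 0.01. The poly(A) polymerase PAPOLA differed by 0.00 and TENT4A by 0.05. TENT5A was the exception in size, at 2.94, 2.29 and 8.37 FPKM in knockdown replicates 2, 3 and 4, against 2.10, 2.75 and 1.91 FPKM in control replicates 2, 3 and 4, with overlap between the groups.

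Genes beside the OAS genes on the chromosome gave smaller values. Of the 5 protein-coding neighbours on each side of the OAS1-OAS3-OAS2 cluster, 9 were in the table and 7 were tested, with 0 called higher and 0 lower (limma; 0 and 0 at an unadjusted p under 0.05). The largest difference was that of RPH3A, a synaptic vesicle protein and the neighbour next to OAS1, with a log2 difference of 0.81. It was at 7.97, 6.50 and 14.3 FPKM in knockdown replicates 2, 3 and 4, against 6.69, 6.99 and 2.14 FPKM in control replicates 2, 3 and 4. RPH3A thus was highest in knockdown replicate 4 and lowest in control replicate 4, as OAS1 was, but the groups overlapped. RPL6, a ribosomal protein, differed by -0.19.

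Around OASL, 9 of 10 neighbours were tested and 0 were called either way (limma; 0 and 0 at an unadjusted p under 0.05), with log2 differences from -0.06 (CAMKK2) to 0.17 (RNF34). Around CNP, 8 of 9 in the table were tested and 0 were called (limma; unadjusted p under 0.05 for 1 higher and 0 lower, namely KLHL11, with a log2 difference of 0.19, named after its values were seen). The fifth gene after CNP is DHX58, at 0.730, 0.231 and 35.7 FPKM in knockdown replicates 2, 3 and 4, against 0.238, 0.235 and 0.161 FPKM in control replicates 2, 3 and 4. ZNF385C, which lies between them, was at 0.711, 0.699 and 2.98 FPKM in knockdown replicates 2, 3 and 4, against 0.481, 0.712 and 0.895 FPKM in control replicates 2, 3 and 4. CNP, ZNF385C and DHX58 were each highest in knockdown replicate 4, whereas DNAJC7, which lies between CNP and ZNF385C, differed by 0.00.

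**Figure D5:**
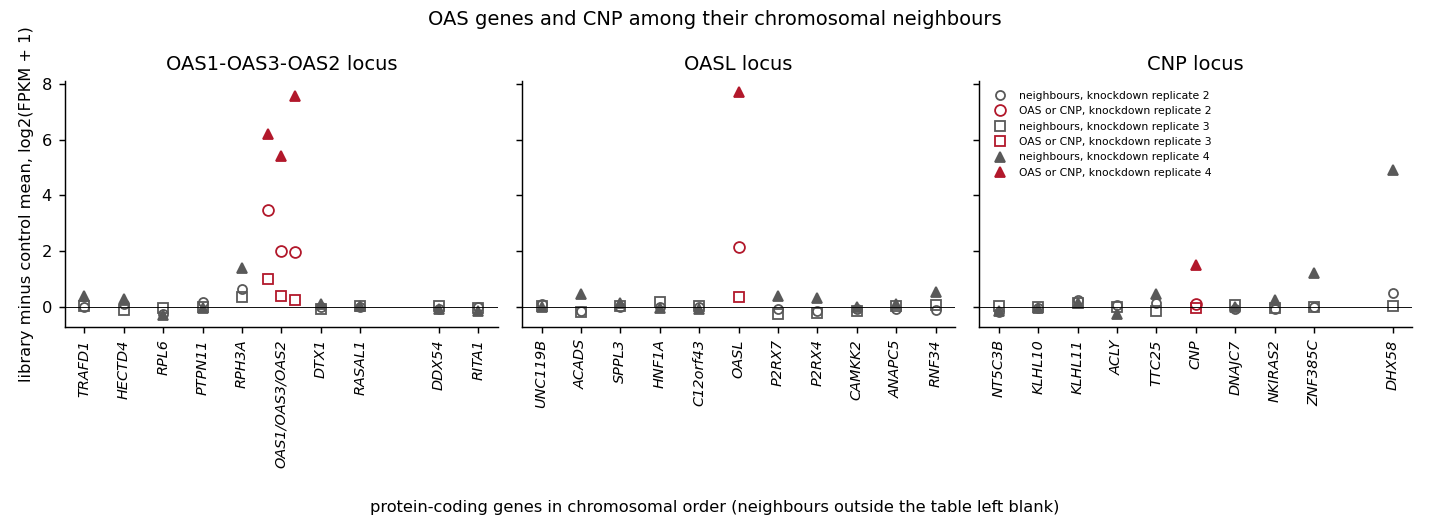
Difference from the control mean on the log2(FPKM + 1) scale in knockdown replicates 2, 3 and 4 for the OAS genes and CNP (red) and their protein-coding neighbours (grey) in chromosomal order, in the 3 loci. The OAS genes lie 5.43 to 7.70 above the control mean in knockdown replicate 4, where the highest of their own neighbours is RPH3A, at 1.41. CNP lies at 1.52 in that library, below its neighbour DHX58, at 4.92.

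Genes were also ranked by the likeness of their values over the 6 libraries, as the Euclidean distance between log2(FPKM + 1) values taken from each gene's own control mean. Nearest to OAS1 were PLSCR1 (1.23), USP18 (1.25) and HERC6 (1.45). Nearest to OAS3 were DTX3L (0.46), IRF7 (0.54) and PARP14 (0.60). Nearest to OAS2 were MX2 (0.25), OASL (0.27) and CXCL10 (0.53), and nearest to OASL were OAS2 (0.27), IFIT2 (0.35) and HERC5 (0.40). Of 12163 other genes, OAS2 was thus the nearest to OASL, and OASL ranked 2 for OAS2, while OAS3 ranked 8 among those nearest to OAS1 and OAS1 ranked 38 for OAS3. OAS1 therefore had no neighbour as close in pattern as the other 3 had. These lists depend on knockdown replicate 4 and on the pseudocount. Without that library, 0, 2, 3 and 1 of the 5 nearest genes were shared for OAS1, OAS2, OAS3 and OASL. With a pseudocount of 0.1 the shared genes numbered 2, 2, 1 and 4.

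Markers were checked for other cells that could carry these genes. CNP also marks myelinating glia, but 11 of 12 other markers of these cells were under 1 FPKM in every library, with MOG, MAG, OLIG1 and OPALIN at 0 throughout and a summed level of 1.56 to 1.83 FPKM in the knockdown libraries, against 1.16 to 1.80 FPKM in the controls. Of 8 leukocyte markers 7 were under 1 FPKM in every library, with CD3E and MS4A1 at 0 throughout and a sum of 0.841 to 1.97 FPKM in the knockdown libraries, against 0.879 to 1.47 FPKM in the controls. Fibroblast markers summed to 149 to 164 FPKM in the knockdown libraries, against 132 to 161 FPKM in the controls, most of it DCN, THY1 and PDGFRB. COL1A2 was at 0 throughout. PDGFRB and LUM were at 31.7 and 13.8 FPKM in knockdown replicate 4, against at most 22.2 and 7.70 FPKM in the controls, and their part in the OAS levels was not tested. Of 11 neuroblastoma markers 10 reached a mean of 1 FPKM, among them MYCN, CHGA and HAND2, with a sum of 4694 to 5028 FPKM in the knockdown libraries, against 5411 to 5537 FPKM in the controls, while TH was at most 0.087 FPKM. Of those 10 markers 9 had a fitted difference below 0, against 6488 of all 12164 genes. The median log2 difference of the 10 was -0.10, against -0.01 over all genes, and MYCN and CHGA held most of the sum. Called were 0 of the 10 (limma; unadjusted p under 0.05 for 0 higher and 1 lower). The 1 was CHGA, a secretory granule protein, at 1220, 1375 and 1439 FPKM in knockdown replicates 2, 3 and 4, against 1689, 1652 and 1781 FPKM in control replicates 2, 3 and 4, without overlap (log2 difference -0.35), and its part in the OAS levels was not tested.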

How the data were processed

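The deposited values are FPKM, made by the authors with 1 column per library. TopHat2 and Cuffdiff and the hg38 build are named per the submitters' processing notes; their versions, the annotation, filters and strand are not stated there. Since FPKM is not a count, count models were left out.

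The 5 genes, the gene lists, tests and alternatives were chosen with earlier results of these data known. The gene for RNase L and some other genes of the lists are not reported here, and the lists are counted without them. The 12164 genes whose mean over the 6 libraries reached 1 FPKM were fitted as log2(FPKM + 1) with limma 3.58.1 in R 4.3.3 (two-sided, eBayes trend on, no covariate, difference taken as knockdown minus control, Benjamini-Hochberg over all 12164 genes, threshold 0.05). This scale understates changes of low genes. The steps were tested on simulated data. Listed genes were matched by symbol or older symbol. Named beyond the 5 genes are MIAT, the counted genes of the 2-5A and ISGF3 lists, up to 3 of the most abundant and 3 of the most different genes of other lists, up to 2 neighbours per locus and the 3 genes nearest in pattern to each OAS gene. Around CNP, KLHL11 and the overlapping DNAJC7 are named as well, and so are some markers at or near 0. Gene coordinates come from GENCODE release 29, on GRCh38 (hg38). Alternatives were pseudocounts, filters, scalings, library weights, the replicate block and libraries left out.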

Additional observations from a re-analysis of the deposited data

How the results depend on the processing

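OAS1, OAS2, OAS3, OASL and CNP kept a difference above 0 under all 16 alternatives, from 1.96 to 4.83 for OAS1, 1.10 to 5.42 for OAS2, 1.08 to 3.72 for OAS3, 1.27 to 9.24 for OASL and 0.01 to 0.81 for CNP (log2). The 9.24 of OASL came with a pseudocount of 0.01, since its controls are at 0. The eBayes setting, the filters and the replicate block cannot change these differences of means. The differences chose the genes, so their ranges are a description. The count of the 5 genes above the controls without overlap was 3 under quantile normalization, 5 without control replicate 2 and 5 without knockdown replicate 3, and 4 otherwise. Over all genes 22 (9 higher, 13 lower) passed the threshold with library weights and 1 (lower) without both libraries numbered 4, and 0 in the other alternatives. None of the non-member genes listed in the 2-5A, cyclic phosphate, double-stranded RNA, ISGF3 or nucleotidyltransferase lists, nor a neighbour, passed in any alternative, and 1 neuroblastoma marker passed with library weights. MIAT passed with library weights (log2 -1.58, adjusted p = 0.00299) and without both libraries numbered 4 (log2 -1.54, adjusted p = 0.0118; 0.00299 to 1 over 15 alternatives). Genes without overlap above the controls numbered 750 with no filter, 2026 without both libraries numbered 4 (2330 below) and 761 to 1325 with 1 library left out (794 to 1407 below), where fewer samples make separation easier by construction. With the replicate number as a block 0 genes passed. Deviations from the group means of same-numbered libraries correlated at 0.09, 0.17 and 0.32 for numbers 2, 3 and 4, and 1 of the 3 knockdown libraries correlated best with the control of its own number. Not all 3 values were above 0.1 and the labels give the numbers no meaning, so the numbers were not used as pairs. The block changed no call, although the adjusted p of MIAT was 0.194 with it (limma). Of 60 recomputed ratios to the control mean 57 moved by less than the spread of the controls; the other 3 were those of OAS2 under quantile normalization, at 10.4, 0.944 and 678 in knockdown replicates 2, 3 and 4. Depth in reads is unknown, which limits OAS2 and OASL in knockdown replicate 3, where both are under 1 FPKM.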
